A study of Mus musculus with 69 samples.

Results

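The core circadian clock genes were followed in the lungs of female C57BL/6 mice that had received 1 intratracheal dose of nano-TiO2. The set held 10 genes, Arntl (also called Bmal1), Clock, Npas2, Per1, Per2, Per3, Cry1, Cry2, Nr1d1 and Nr1d2. They were found by the accession that the array design gives each probe, matched to RefSeq symbols, which gave 17 of the 41174 probes on the array. The members were chosen by measured values: Arntl and Per2 were known to differ between the materials and with the dose of NRCWE-030 on day 28 in these same arrays. The values of those comparisons are therefore given as a description, with no test.

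Each of the 69 arrays held lung RNA of 1 mouse, labelled with Cy5, beside Universal Mouse Reference RNA, a bought mixture, labelled with Cy3. Mice received 18, 54 or 162 µg of the titanium dioxide nanomaterial NRCWE-025 or NRCWE-030, or the vehicle alone (2% serum in water), and lungs were taken on day 1 or day 28. The mice were 5 to 7 weeks old when obtained, had 1 to 3 weeks to settle before the dose, and lived under 12 h of light and 12 h of dark. This made 14 groups: 13 groups held 5 mice, and NRCWE-025 at 162 µg on day 28 held 4. The vehicle mice of a day were the controls of both materials, so comparisons of the 2 materials with vehicle share control arrays. A small section of frozen whole lung was extracted from each mouse, so fewer cells of a type and less RNA per cell cannot be told apart. A level is given as the log2 of lung over reference, on which a step of 1 is a doubling. Differences between groups are on the same scale and carry the standard error (SE) of 1 limma model over all 14 groups, and a gene counted as called where its p, adjusted over all 41174 probes by Benjamini-Hochberg, was under 0.05. A value for a gene is that of its brightest probe unless another probe is named.

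The circadian clock of mammalian cells is a feedback loop of transcription. Arntl pairs with Clock, or with the related Npas2, and the pair binds E-box sequences and switches on the Per and Cry genes, whose proteins return to block it. The same pair switches on Nr1d1 and Nr1d2, nuclear receptors (REV-ERB alpha and beta) that repress Arntl, so Arntl transcript peaks at about the opposite time of day to Per and Nr1d transcripts. Lung has such a clock, and its airway epithelium is known for strong rhythms. The hour at which the lungs were taken is not given in the sources used here, so the groups and the hour of collection cannot be told apart. The sample numbers in the labels run in order of dose within each material and day (56 to 60, 62 to 66 and 68 to 72 for NRCWE-030 on day 1), and what this numbering marks is not given.

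The regulatory letters through which these genes are known to act on each other were read from RefSeq promoter windows of assembly GRCm38.p6, from 250 bases before to 50 bases after a transcription start. Of the 10 genes, 9 had at least 1 window, 13 windows in all, and Per2 had none. Searched on both strands were the E-box CACGTG, its variant CACGTT, the D-box TTANGTAA, bound by Dbp and its relatives, and the Nr1d recognition letters TAGGTCA and TGGGTCA. Of the 13 windows, 6 held at least 1 of them, in 6 of the 9 genes. The share of all RefSeq windows that hold any of these motifs was not counted, so this count has no background beside it. The 4 windows printed here each hold 1 kind of motif, in capitals, and show the 2 arms of the loop: the receptor letters in Arntl, where the Nr1d receptors bind, the E-box in Per1, the E-box variant in Nr1d1, read as AACGTG on the gene's strand, and the D-boxes in Per3.
Arntl: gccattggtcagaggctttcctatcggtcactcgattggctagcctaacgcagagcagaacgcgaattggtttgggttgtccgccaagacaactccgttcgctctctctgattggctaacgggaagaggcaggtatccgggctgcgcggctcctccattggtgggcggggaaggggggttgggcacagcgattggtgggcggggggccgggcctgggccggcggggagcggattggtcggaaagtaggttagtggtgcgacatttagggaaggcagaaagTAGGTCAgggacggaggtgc
Per1: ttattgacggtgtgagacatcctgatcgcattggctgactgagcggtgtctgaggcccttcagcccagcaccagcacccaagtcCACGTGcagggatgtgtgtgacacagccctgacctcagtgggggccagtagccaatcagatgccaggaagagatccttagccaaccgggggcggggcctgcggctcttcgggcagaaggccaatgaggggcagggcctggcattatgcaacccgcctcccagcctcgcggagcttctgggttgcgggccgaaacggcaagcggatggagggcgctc
Nr1d1: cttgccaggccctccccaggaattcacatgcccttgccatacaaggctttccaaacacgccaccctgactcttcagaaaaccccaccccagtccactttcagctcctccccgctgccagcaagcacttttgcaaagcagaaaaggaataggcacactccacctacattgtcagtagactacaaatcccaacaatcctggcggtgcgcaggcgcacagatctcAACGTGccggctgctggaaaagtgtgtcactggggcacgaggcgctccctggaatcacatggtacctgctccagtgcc
Per3: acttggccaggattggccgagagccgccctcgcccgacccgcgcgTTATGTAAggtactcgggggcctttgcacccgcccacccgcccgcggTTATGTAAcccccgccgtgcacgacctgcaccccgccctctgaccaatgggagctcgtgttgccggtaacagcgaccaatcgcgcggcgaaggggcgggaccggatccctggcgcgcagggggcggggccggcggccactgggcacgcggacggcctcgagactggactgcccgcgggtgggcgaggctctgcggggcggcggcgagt
The Arntl window lies at chr7:113207261-113207560 on the plus strand, and the match starts 30 bases after the transcription start. The Per1 window is chr11:69098699-69098998 on the plus strand, with the E-box at position -166 from the start. The Nr1d1 window is chr11:98775328-98775627 on the minus strand, with the match at -28. The Per3 window is chr4:151044616-151044915 on the minus strand, with D-boxes at -205 and -158. Of 32851 RefSeq windows of this length, 7.15% held the E-box, 4.68% its variant, 2.32% the D-box, 2.61% TAGGTCA and 3.98% TGGGTCA. No match in these genes overlapped another. A match is only a run of letters in the window, and no binding was measured in these lungs.

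The arrays measured the members with unequal strength. Arntl, Nr1d2, Per1 and the brightest probes of Clock, Per2, Cry2 and Nr1d1 were well above background in the lung channel on all 69 arrays. Per3 was well above background on 54 arrays, Npas2 on 18 and Cry1 on 4, so the values of Npas2 and Cry1 lie mostly near the background and small differences there were not detectable. On an array, 49.1% to 72.8% of spots were well above background, and no spot was saturated. All 6 lung markers of a fixed list (surfactant and club cell genes among them) were well above background on all 69 arrays, and the mean of that list ranged from 4.49 to 5.77. Heart muscle markers varied more, from 0.15 to 5.20, with group means of 0.62 to 3.23, and neutrophil markers ranged from 2.11 to 4.30. In the comparisons with vehicle, the only marker called of these 3 lists was 1 of 5 neutrophil markers, higher at 162 µg of NRCWE-030 on day 1. On the arrays of that group the neutrophil mean ranged from 3.10 to 3.79, against 2.69 to 3.28 in day 1 vehicle, and the lung mean from 4.56 to 5.49, against 4.83 to 5.67. On day 28 the neutrophil mean was 3.68 in vehicle (2.67 to 4.30) and 2.88 (2.82 to 3.03) and 2.90 (2.57 to 3.08) at 54 and 162 µg of NRCWE-030, with no marker called. Vehicle day 1 replicate 2 held the highest heart muscle mean, 5.20, and a fat marker mean of 3.47, where that group ranged down to 0.50. Whether lung cell, fat, heart or neutrophil RNA has a part in any value of a clock gene was not tested.

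One control array stood apart in the clock genes. In replicate 3 of the day 1 vehicle group, Arntl was at -1.70, against 0.36, 0.47, 0.82 and 0.56 in the other 4 vehicle mice. Several repressors of the loop were high on that array. Per2 was at 1.73 (others -0.51 to 0.35), Nr1d2 at 2.01 (others 0.14 to 0.40) and Nr1d1 at 2.20 (others 0.85 to 1.11). Per1 was at 1.49 (others -1.24 to -0.17) and Cry2 at 1.49 (others 0.27 to 1.04). Cry1, near the background, went the other way, with its brightest probe lowest there. Its second probe was at -0.33 (others -0.12 to 0.04). Clock, at 0.77, and Per3 did not stand apart there. Nor did the lung marker mean of that array, 5.42, within the range of 4.83 to 5.67 in the day 1 vehicle group. Its neutrophil marker mean of 2.69 and its lymphocyte marker mean of -0.17 (others 0.25 to 0.59) were the lowest of that group. With the array the day 1 vehicle mean of Arntl was 0.10 ± 1.02 (SD, n = 5), and without it 0.55 ± 0.20 (SD, n = 4). On the same array Spon2 was at -1.84 (others -0.31 to 0.59) and Tspan4 at 0.35 (others -1.33 to -0.31), genes named here after their values were seen. What sets the array apart was not tested, and neither the labels nor the file headers mark it. The day 1 differences from vehicle are therefore given with all 5 vehicle arrays and again without replicate 3. That array was singled out by its values in these same genes. Leaving it out therefore narrows the vehicle spread wherever it stood apart. The calls and p-values without it describe that dependence and are no separate support.

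Arntl, the activator without which the loop stops, was lower on day 1 after NRCWE-030. At 18 µg the 5 mice were at -0.85, -0.69, -0.81, -0.93 and -0.32. At 54 µg they were at -1.10, -1.27, -1.07, -1.16 and -1.06. At 162 µg they were at -1.49, -0.95, -1.47, -1.85 and -1.28. All 15 mice lay below the 4 other vehicle mice, and 1 of them, at -1.85, also lay below vehicle replicate 3. The fitted difference from vehicle was -0.82 at 18 µg, -1.24 at 54 µg (adjusted p = 0.00384, limma) and -1.51 at 162 µg (SE 0.24, adjusted p = 5.8e-05, limma), a 2.85-fold lower level at the highest dose. Only the 54 and 162 µg differences were called. Without vehicle replicate 3 the differences were -1.27, -1.69 and -1.96 (SE 0.18 at 162 µg), with adjusted p of 3.62e-05, 2.35e-08 and 4.58e-11 by limma. All 3 doses were then called, in a fit that leaves out an array set apart by its Arntl value.

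After NRCWE-025 on day 1 Arntl was nearer to the vehicle level. The 5 mice at 18 µg were at -0.25, -0.23, 0.60, 0.10 and 0.35, and 4 of them lay below the 4 vehicle mice other than replicate 3. Those at 54 µg, at 0.17, -0.37, 0.16, -0.38 and -0.08, all lay below these 4 vehicle mice. At 162 µg they were at -0.36, -1.06, -0.35, -0.59 and -0.42, again all below these 4 vehicle mice. The difference from vehicle at 162 µg was -0.66 (adjusted p = 0.272, limma) with all vehicle arrays. It was -1.11 (adjusted p = 0.000899, limma) without replicate 3, so the call at 162 µg rests on that array being left out. At 18 and 54 µg the differences were 0.01 and -0.20, or -0.44 and -0.65 without replicate 3, and neither was called.

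On day 28 the vehicle mice had Arntl at 0.37, 0.55, 0.68, 0.19 and 0.46. After NRCWE-025 the 18 µg mice were at 0.63 to 0.82 and the 54 µg mice at 0.32 to 0.85. The 4 mice at 162 µg were at -0.20, 0.62, 0.61 and 0.59. The differences from vehicle of 0.25, 0.10 and -0.04 were not called. After NRCWE-030 the 18 µg mice were at -0.25, 0.33, 0.20, 0.15 and 1.11, spread around the vehicle mice. The 54 µg mice, at -0.78, -0.68, -0.56, -1.02 and -0.28, and the 162 µg mice, at -0.71, -0.98, -0.90, -0.97 and -1.06, all lay below every vehicle mouse. Those differences from vehicle were -0.14, -1.11 and -1.37, in the comparison that chose the genes.

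**Figure D1:**
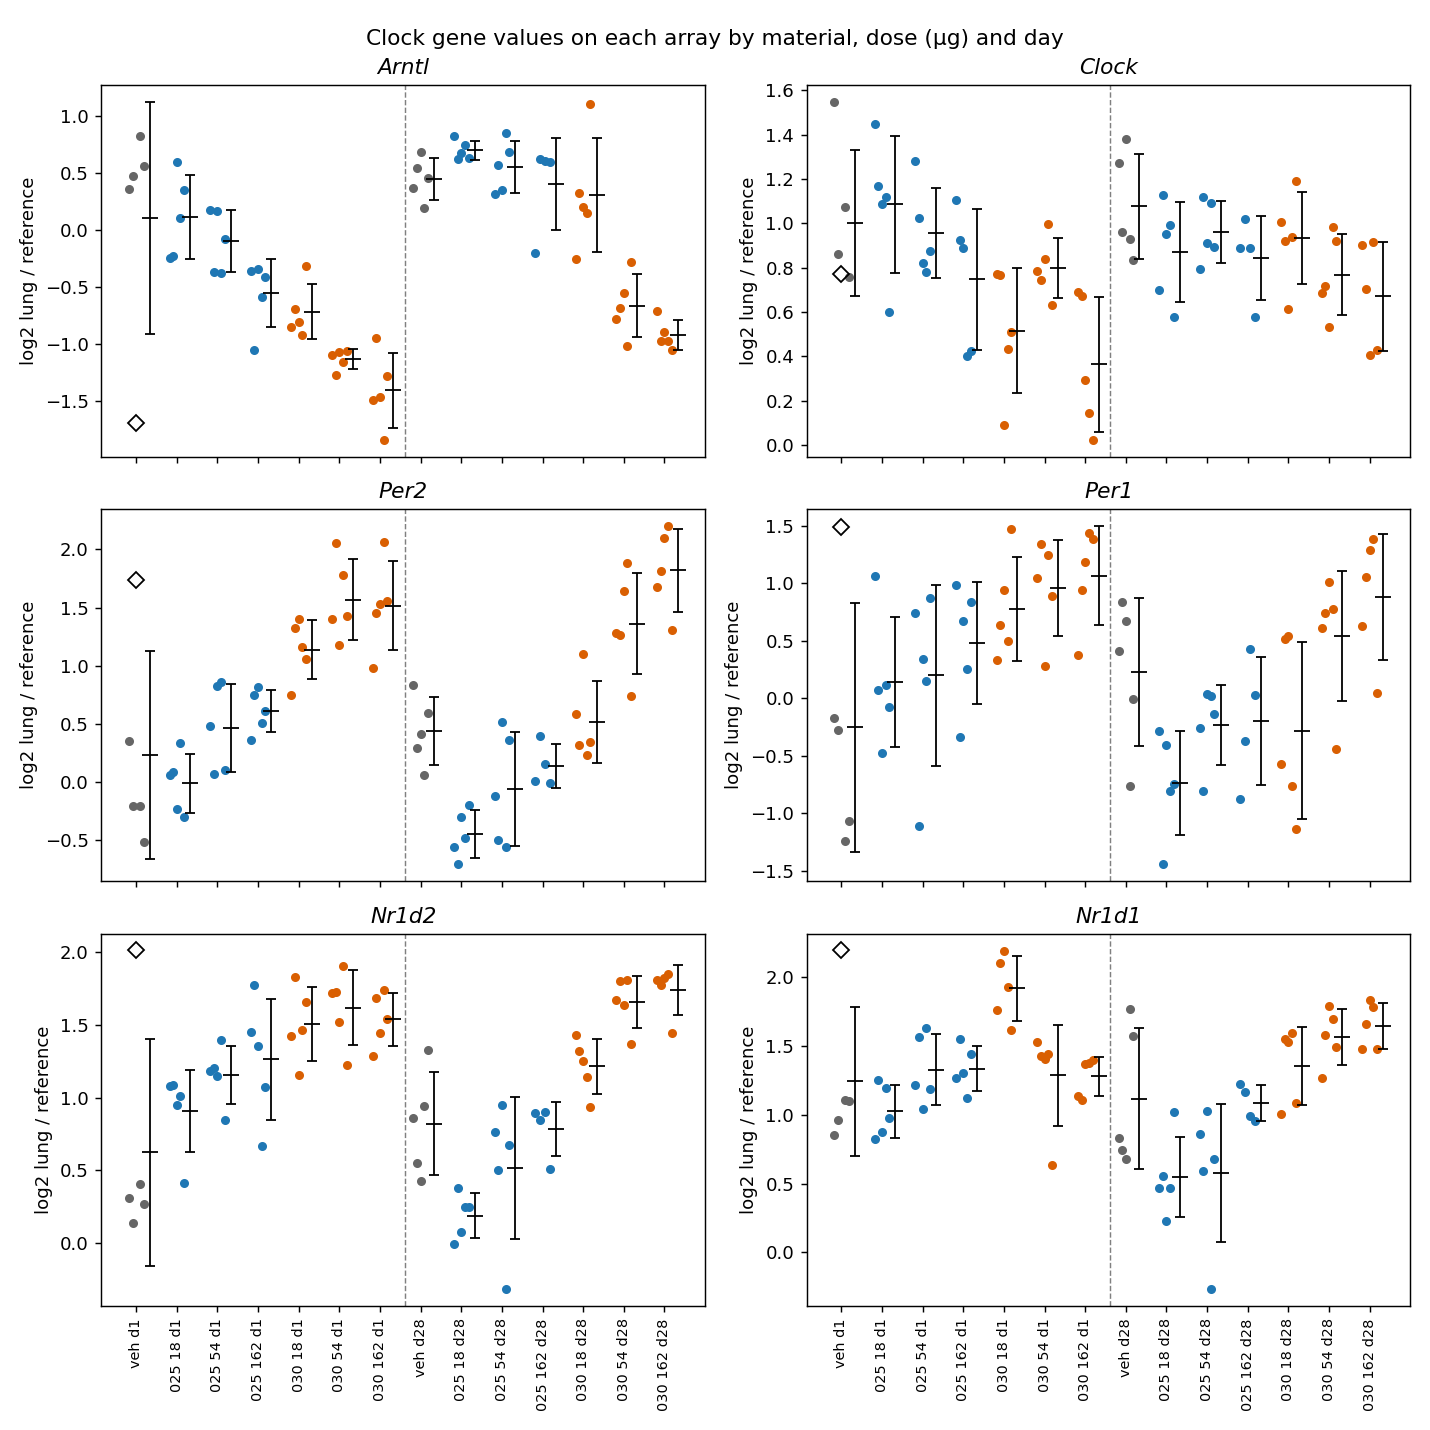
Level of Arntl, Clock, Per2, Per1, Nr1d2 and Nr1d1 (y axis, log2 lung over reference) in each of the 14 groups (x axis), with 1 dot per array, bars for the mean ± SD, grey for vehicle, blue for NRCWE-025, orange for NRCWE-030, and a dashed line between the days. The open diamond is vehicle day 1 replicate 3, at -1.70 in Arntl and 1.73 in Per2, and the lowest Arntl group is NRCWE-030 at 162 µg on day 1.

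Clock, the usual partner of Arntl, moved less. The day 1 vehicle mice were at 1.55, 0.86, 0.77, 1.07 and 0.76, and the mice at 162 µg of NRCWE-030 at 0.69, 0.67, 0.30, 0.15 and 0.02, all lower than any vehicle mouse. The difference was -0.64 (SE 0.15, adjusted p = 0.0142, limma) and -0.69 (adjusted p = 0.0123, limma) without vehicle replicate 3. At 18 and 54 µg it was -0.49 and -0.20, or -0.54 and -0.26 without that array, with no call. The other probes of Clock gave -0.20 (SE 0.15, adjusted p = 0.68, limma) and -0.27 (SE 0.10, adjusted p = 0.194, limma) at 162 µg, so the call belongs to 1 of 3 probes. It was also lost with the median over the probes of a gene (adjusted p = 0.37, limma), and without vehicle replicate 1 (adjusted p = 0.0963, limma) or NRCWE-030 162 µg replicate 5 (adjusted p = 0.0733, limma). Npas2, which can stand in for Clock, differed from vehicle by -0.14, -0.03 and -0.20 at the 3 doses, or -0.14, -0.03 and -0.21 without replicate 3, near the background, with no call.

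Per2, a repressor of the pair of Arntl and Clock, was higher on day 1 after NRCWE-030. The vehicle mice other than replicate 3 were at 0.35, -0.20, -0.20 and -0.51. The 18 µg mice were at 0.75, 1.33, 1.40, 1.16 and 1.06, the 54 µg mice at 1.40, 2.05, 1.18, 1.78 and 1.43, and the 162 µg mice at 0.98, 1.46, 1.53, 2.06 and 1.56, all above those 4 vehicle mice. The difference from vehicle was 0.91 at 18 µg, 1.33 at 54 µg (adjusted p = 0.00213, limma) and 1.28 at 162 µg (SE 0.25, adjusted p = 0.00145, limma), with calls at 54 and 162 µg only. Without replicate 3 it was 1.28, 1.71 and 1.66, with adjusted p of 0.0015, 9.24e-07 and 1.61e-06 by limma, and all 3 doses were called. The second probe of Per2, well above background on 62 arrays, gave 0.04 (SE 0.10, adjusted p = 0.949, limma) at 162 µg, so the 2 probes of the gene disagreed.

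After NRCWE-025 on day 1 the Per2 difference from vehicle was -0.24, 0.23 and 0.38 at the 3 doses, or 0.13, 0.61 and 0.75 without replicate 3, none called. At 18, 54 and 162 µg, 0, 3 and 5 of 5 mice lay above the 4 vehicle mice other than replicate 3. On day 28 the vehicle mice were at 0.83, 0.30, 0.41, 0.06 and 0.59, and the mice at 18 µg of NRCWE-025 at -0.56, -0.71, -0.30, -0.48 and -0.19, all below every vehicle mouse. That difference of -0.89 was not called (adjusted p = 0.238, limma), and those at 54 and 162 µg were -0.50 and -0.30. After NRCWE-030 on day 28 the 54 µg mice were at 1.28, 1.26, 1.65, 1.88 and 0.74 and the 162 µg mice at 1.67, 1.82, 2.09, 2.20 and 1.31. The 162 µg mice all lay above the vehicle mice, whereas 1 of the 54 µg mice lay below the highest of them. The differences from vehicle in this choosing comparison were 0.08, 0.92 and 1.38, and 0.09 at 162 µg by the second probe.

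Per1, which responds fast to stress and glucocorticoid signals as well as to the clock, varied widely among vehicle mice. On day 1 they were at -0.17, -0.28, 1.49, -1.24 and -1.07, and the mice at 162 µg of NRCWE-030 at 0.38, 0.94, 1.19, 1.44 and 1.38. The difference was 1.03, 1.21 and 1.32 at the 3 doses, and the last just missed the call (SE 0.37, adjusted p = 0.0501, limma). Without replicate 3 it was 1.46, 1.65 (adjusted p = 0.0127, limma) and 1.75 (adjusted p = 0.00368, limma). With slide as a random block, or with scan day as a fixed one, Per1 was called at 162 µg (adjusted p = 0.0246 and 0.0164, limma). With slide as a fixed block it was not called there (adjusted p = 0.0621, limma). Per3, their relative with a lesser part in the loop, gave 0.32, 0.26 and 0.35, or 0.33, 0.28 and 0.37 without replicate 3, with no call. At 162 µg it was called with slide as a random block (0.39, adjusted p = 0.0403), slide as a fixed block (0.42, adjusted p = 0.00742) or scan day (0.42, adjusted p = 0.00823), by limma. Cry2, a partner of the Per proteins, gave -0.08, 0.08 and 0.22, and 0.11, 0.27 and 0.42 without replicate 3, where the sign at 18 µg turned and no dose was called. Cry1, near the background, gave -0.05, 0.03 and -0.06, or -0.15, -0.06 and -0.16 without replicate 3, with no call.

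The receptors that repress Arntl, Nr1d2 and Nr1d1, are given one after the other, and the difference between them was not tested. Nr1d2 on day 1 was at 0.31, 0.14, 2.01, 0.40 and 0.26 in vehicle mice. After NRCWE-030 it was at 1.15 to 1.83 at 18 µg, 1.22 to 1.91 at 54 µg and 1.29 to 1.74 at 162 µg, above every vehicle mouse but replicate 3. The difference from vehicle was 0.88, 1.00 (adjusted p = 0.0117, limma) and 0.92 (SE 0.21, adjusted p = 0.00912, limma), with calls at 54 and 162 µg only. Without replicate 3 it was 1.23, 1.34 and 1.26, with adjusted p of 3.62e-05, 1.68e-06 and 4.45e-06 by limma, and all 3 doses were called. After NRCWE-025 the day 1 mice were at 0.41 to 1.09, 0.85 to 1.40 and 0.67 to 1.78 at the 3 doses, also above every vehicle mouse but replicate 3. The difference was 0.28, 0.53 and 0.64 (adjusted p = 0.196 at 162 µg, limma), and 0.63, 0.88 and 0.99 (adjusted p = 0.00356 at 162 µg, limma) without replicate 3.

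The highest Nr1d1 group mean of all 14 was NRCWE-030 at 18 µg on day 1, with mice at 1.76, 2.10, 2.19, 1.93 and 1.62. At 54 µg the mice were at 1.53, 1.42, 1.41, 1.44 and 0.64, and at 162 µg at 1.14, 1.11, 1.37, 1.38 and 1.40. The difference from vehicle was 0.68 (adjusted p = 0.258, limma), 0.05 and 0.04 at the 3 doses. Without replicate 3 it was 0.91 (adjusted p = 0.0239, limma), 0.28 and 0.27, so the lowest dose alone was called, and only then. The other 2 probes of Nr1d1 gave 0.18 and 0.10 at 18 µg, or 0.27 (adjusted p = 0.552, limma) and 0.16 (adjusted p = 0.787, limma) without replicate 3, so the probes disagreed where the call lay. At 162 µg they gave -0.08 and -0.06. On day 28 the NRCWE-025 18 µg mice had Nr1d2 at -0.01 to 0.38, all below the vehicle mice, which were at 0.42 to 1.33, with a difference of -0.63, and Nr1d1 differed by -0.57, neither called. NRCWE-030 on day 28 gave 0.39, 0.84 and 0.92 for Nr1d2 and 0.24, 0.45 and 0.53 for Nr1d1, in the choosing comparison.

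Counted over the set, 3 of the 10 genes were called at 54 µg of NRCWE-030 on day 1 (Arntl lower, Per2 and Nr1d2 higher) against 0.289% of all probes, and 4 at 162 µg (Arntl and Clock lower, Per2 and Nr1d2 higher) against 1.61%. At 18 µg none was called by limma, against 0% of all probes, with 7 members and 3225 probes in all at an unadjusted p under 0.05. With slide as a block, Arntl (adjusted p = 0.0412 random, 0.0323 fixed) and Nr1d2 (0.0179 and 0.0121) were called at 18 µg by limma, against 0.221% and 0.534% of all probes, and with scan day Nr1d2 (0.0438), against 0.0971%. At 54 µg each of these 3 blocks added Per1, for 4 members, against 1.45%, 1.98% and 1.26% of all probes, and at 162 µg the counts were 6, 5 and 6, against 2.38%, 1.81% and 2.09%. The median difference of the 10 genes at 162 µg was 0.13, beside a median of all probes between -0.01 and 0.00 in every comparison. Called members went in opposite directions, so this median does not show how far the members moved. Without vehicle replicate 3 the percentages of all probes called were 0.0704%, 0.527% and 1.41% at the 3 doses. After NRCWE-025 on day 1 no member was called at 18, 54 or 162 µg, against 0%, 0% and 0.216% of all probes, with 0, 1 and 2 members and 1887, 2456 and 4240 probes in all at an unadjusted p under 0.05 by limma. Without replicate 3, when 0.267% of all probes were called at 162 µg, Arntl and Nr1d2 were called. These comparisons share arrays with those that chose the genes and are no independent support for the choice.

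Over the 3 doses and vehicle together, limma's F-test of NRCWE-030 on day 1 called Arntl (adjusted p = 0.000227), Per2 (0.00113), Nr1d2 (0.00552) and Clock (0.037), 4 of 10 against 1.42% of all probes. Without replicate 3 it also called Per1 (adjusted p = 0.00656) and Nr1d1 (0.0114), 6 of 10 against 1.38%. The count was 7 with slide as a fixed block, which added Per1, Per3 and Nr1d1, where 5.80% of all probes were called, and 0 when each material and day was fitted alone, where 0.532% were called. Once vehicle replicate 3 was left out, limma's F-test in that last fit gave adjusted p of 9.35e-06 for Arntl, 0.000256 for Nr1d2 and 0.00128 for Per2. Those of Per1 and Nr1d1 were 0.0132 and 0.0248, and the other members were at 0.188 (Clock) or above. The share of all probes called in that fit is not given here, so these values stand without a background. Without vehicle replicate 2 the count was 2, with 0.911% of all probes called. For NRCWE-025 the F-test called 0 of 10 on day 1 against 0.102% (2 at an unadjusted p under 0.05), and 2 of 10, Arntl (0.00483) and Nr1d2 (0.00804), without replicate 3, against 0.153%. On day 28 it called 0 of 10 against 0.0267% (3 at an unadjusted p under 0.05).

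Against vehicle on day 28, NRCWE-025 gave no called member at 18, 54 or 162 µg, against 0.034%, 0.017% and 0.00729% of all probes. At an unadjusted p under 0.05 by limma there were 5, 2 and 1 members, and 2892, 2315 and 2427 of all 41174 probes. The 5 at 18 µg came with 5 of 5 mice below all vehicle mice for Per2 and Nr1d2. Between 162 and 18 µg of the same material no member was called by limma: the background was 0.172% for NRCWE-025 on day 1 (3 members at an unadjusted p under 0.05), 0.835% for NRCWE-030 on day 1 (2 members) and 0% for NRCWE-025 on day 28 (3 members, and 1073 probes in all). In the day 1 comparison of NRCWE-030 Arntl differed by -0.69 and was called without vehicle replicate 3 (adjusted p = 0.0336, limma), against 0.804% of all probes. The comparison holds no vehicle array, so leaving that array out changed the spread estimated by the model and not the difference. With slide as a random or a fixed block 2 members were called there, with 3.12% and 5.20% of all probes. On day 28, in the choosing comparison, 162 µg of NRCWE-030 stood -1.23 from 18 µg in Arntl and 1.30 in Per2.

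Time by itself gave no call among the members. Vehicle mice on day 28 differed from those on day 1 by 0.35 (SE 0.24) in Arntl, 0.21 in Per2 and 0.20 in Nr1d2, and no member was called by limma, with none at an unadjusted p under 0.05 and 0.0413% of all probes called. Without replicate 3 the Arntl difference was -0.10, with the sign turned, and that of Per2 0.58. Subtracting the day 28 effect of 162 µg from its day 1 effect gave -0.14 (SE 0.34) in Arntl for NRCWE-030, and -0.59 (SE 0.25) without replicate 3, with no test because the day 28 effect chose the genes. For NRCWE-025 it was -0.61 in Arntl and 1.16 in Per1, with no call against 0.0219% of all probes, and 3 members and 3729 probes in all at an unadjusted p under 0.05 by limma. Without replicate 3 it was -1.06 (adjusted p = 0.0847, limma) and 1.60 (adjusted p = 0.233, limma).

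Set beside each other at equal dose, the materials differed in Arntl by -0.83, -1.04 and -0.85 on day 1 (NRCWE-030 minus NRCWE-025 at 18, 54 and 162 µg) and by -0.39, -1.22 and -1.33 on day 28. Per2 differed by 1.15, 1.10 and 0.91 on day 1 and by 0.96, 1.42 and 1.68 on day 28. Nr1d2 differed by 0.60, 0.46 and 0.28, then by 1.03, 1.15 and 0.96. Nr1d1 differed by 0.89, -0.04 and -0.06, then by 0.80, 0.99 and 0.56. These contrasts chose the genes and carry no test. With the median over the probes of a gene, Per2 differed at 162 µg by 0.49 on day 1 and 0.94 on day 28. Pairs of arrays from 1 slide with the same dose and day, 1 of each material, numbered 7 on 4 slides on day 1 and 5 on 3 slides on day 28. The Arntl level was lower in the NRCWE-030 array in 7 of 7 pairs (-1.28 to -0.60) and 5 of 5 pairs (-1.66 to -0.53). That of Per2 was higher in all of these pairs (0.31 to 1.68, then 0.54 to 1.81), and that of Nr1d1 in 4 of 7 and 5 of 5.

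Slides that held vehicle and NRCWE-030 mice gave the difference within 1 slide. On day 1 the 2 or 3 such slides, none of which held vehicle replicate 3, gave Arntl differences from vehicle of -1.67 to -1.37 at 18 µg, -2.10 to -1.57 at 54 µg and -2.32 to -2.03 at 162 µg. Those of Per2 were 0.95 to 1.91, 1.60 to 2.26 and 1.18 to 2.04. On day 28 the 3 such slides gave -0.62 to -0.26, -1.37 to -1.01 and -1.66 to -1.09 in Arntl. For NRCWE-025 on day 1 there were 2 slides, 1 of which held vehicle replicate 3, and their Arntl differences had opposite signs.

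Ordered by the mean, Arntl had its lowest group in NRCWE-030 162 µg day 1, with -1.41 ± 0.33 (SD, n = 5), and its highest in NRCWE-025 18 µg day 28, with 0.70 ± 0.08 (SD, n = 5). From the lowest up came NRCWE-030 at 162 and 54 µg on day 1, at 162 µg on day 28, at 18 µg on day 1 and at 54 µg on day 28, then NRCWE-025 at 162 µg on day 1 (-0.55 ± 0.30) and at 54 µg on day 1 (-0.10 ± 0.27). Day 1 vehicle, NRCWE-025 at 18 µg on day 1, NRCWE-030 at 18 µg on day 28, NRCWE-025 at 162 µg on day 28, day 28 vehicle and NRCWE-025 at 54 and 18 µg on day 28 followed. Neighbours in this order differed by less than the larger of their SDs, except between NRCWE-030 at 54 µg on day 1 (-1.13 ± 0.09) and at 162 µg on day 28 (-0.92 ± 0.13), and between NRCWE-025 at 162 and 54 µg on day 1. Per2 ran nearly the other way, from -0.45 ± 0.21 in NRCWE-025 18 µg day 28 to 1.82 ± 0.35 in NRCWE-030 162 µg day 28. Its only step between neighbours larger than both SDs lay between NRCWE-025 at 162 µg on day 1 (0.61 ± 0.18) and NRCWE-030 at 18 µg on day 1 (1.14 ± 0.26), and the 5 groups above that step were all NRCWE-030.

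**Figure D2:**
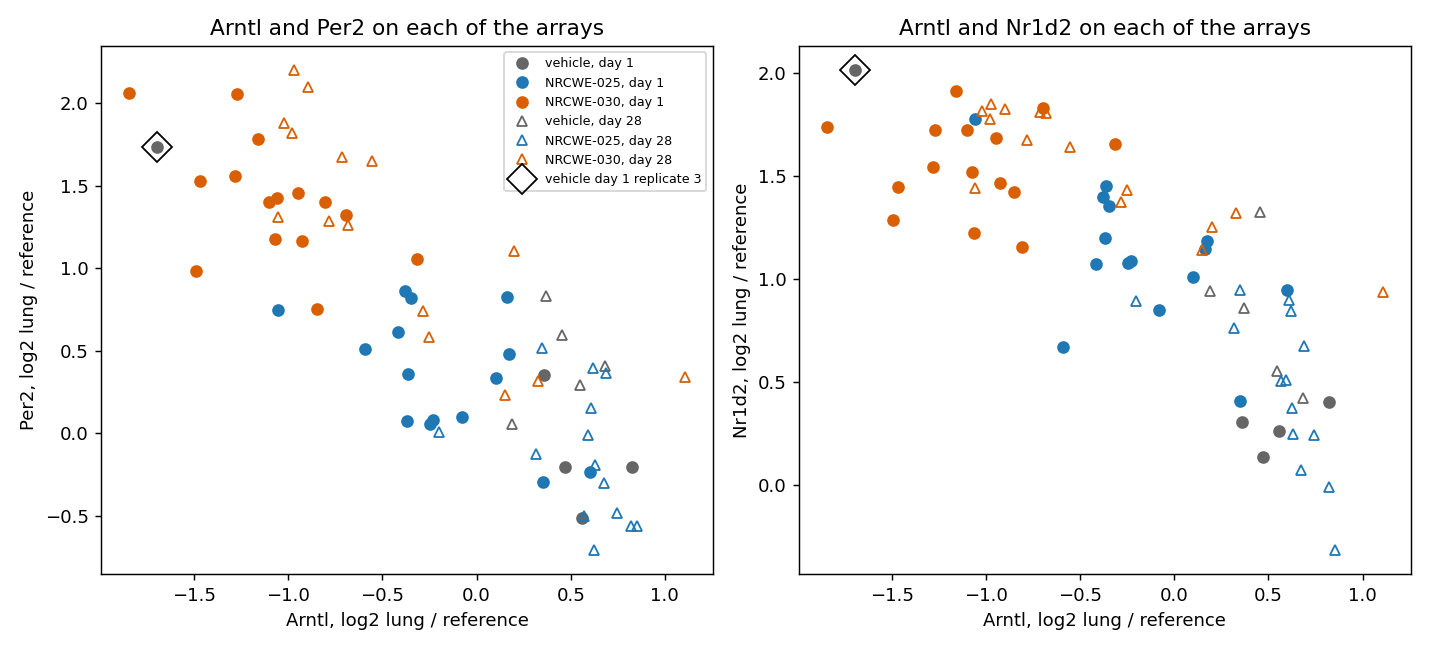
Level of Per2 and of Nr1d2 (y axes) against that of Arntl (x axis), all in log2 lung over reference, with 1 point for each of the 69 arrays, coloured by material. Arrays with low Arntl, from -1.85 upward, hold high Per2 and Nr1d2, and vehicle day 1 replicate 3 (Arntl -1.70, Per2 1.73) lies with the NRCWE-030 arrays.

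Whether mice of the same group also varied in opposite ways was asked of the deviations from the group means, which the choice of genes did not use. Over 69 arrays and 9 gene pairs, Arntl deviations correlated with those of Nr1d2 at r = -0.64 (adjusted p = 0.00126, permutation test within groups), Nr1d1 at -0.55 (adjusted p = 0.00117, permutation test) and Per2 at -0.54 (adjusted p = 0.0157, permutation test). Spearman's rho was -0.46 (adjusted p = 0.00247), -0.48 (0.00198) and -0.33 (0.0404), by permutation. Without vehicle replicate 3, r was -0.37 for Nr1d2 (adjusted p = 0.0139), -0.37 for Nr1d1 (0.0081) and -0.25 for Per2 (0.175), by permutation, so the relation with Per2, before slide means were removed, was past the threshold only with that array. Without it and NRCWE-030 18 µg day 28 replicate 5, the 2 arrays farthest from the median in Arntl, r was -0.34 for Nr1d2 (adjusted p = 0.0554), -0.35 for Nr1d1 (0.0184) and -0.24 for Per2 (0.196).

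With slide means removed as well, r was -0.57 for Nr1d2, -0.44 for Nr1d1, -0.67 for Per2 (adjusted p = 0.00045, permutation test), -0.58 for Per1 (0.00282), -0.52 for Per3 (0.00117) and 0.49 for Clock (0.000495). Without vehicle replicate 3 these became -0.29 (adjusted p = 0.0598), -0.22 (0.111), -0.44 (0.00756), -0.16, -0.30 (0.0598) and 0.29 (0.0595), by permutation. These permutations moved arrays within groups but not within slides, although slide means had been removed. The p-values with slide means removed are therefore too small, and no call rests on them. Within the 7 scan days that held at least 6 arrays, r with Arntl was below 0 on 7 of 7 for Nr1d1 (-0.97 to -0.37) and Per2 (-0.95 to -0.28). It was below 0 on 6 of 7 for Nr1d2, Per1 and Per3, 5 for Cry2, 4 for Npas2, 2 for Cry1 and 1 for Clock. Vehicle replicate 3 was kept in these counts. Clock and Per1 gave no adjusted p under the threshold before slide means were removed, with r of 0.14 and -0.26.

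Of 13640 genes ranked by the same within-group correlation with Arntl, given here as a description over 69 arrays that share slides and a reference, the lowest was Dbp (-0.76), a D-box activator driven by the clock, followed by Nr1d2 (-0.64), Hlf (-0.60), Tspan4 (-0.58) and Nr1d1 (-0.55). The highest were Rasl11a (0.66), Spon2 (0.61), Adm (0.54), Rchy1 (0.54) and B4galt7 (0.52). Over the 68 arrays without vehicle replicate 3 the order changed: the lowest were Cradd (-0.63), Dbp (-0.63), Ift46 (-0.58), Cox16 (-0.57) and Upb1 (-0.56), and the highest were Rchy1 (0.67), B4galt7 (0.65), Anxa5 (0.64), Tardbp (0.62) and Ppp2ca (0.62). Dbp alone of the 5 lowest, and Rchy1 and B4galt7 of the 5 highest, were in both orders.

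The wider clock was followed in 22 other genes (39 probes): outputs and modulators of the loop. At 162 µg of NRCWE-030 on day 1, 4 of 22 were called, all higher, against the 1.61% of all probes given above: Dbp (1.79, adjusted p = 0.00468), the related Tef (0.90, adjusted p = 0.0097), Bhlhe40, a repressor at E-boxes (0.82, adjusted p = 0.00749), and Timeless (0.54, adjusted p = 0.000564), all by limma. At 54 µg 3 were called, Dbp (1.62, SE 0.38), Tef (0.85, SE 0.21) and Timeless (0.43, SE 0.10), against 0.289%, and at 18 µg none was called, against 0%, with 6 at an unadjusted p under 0.05 by limma. Without vehicle replicate 3 the calls at 18, 54 and 162 µg were 2, 3 and 6, with Ciart and Hlf added at 162 µg, against 0.0704%, 0.527% and 1.41% of all probes. After NRCWE-025 on day 1, Bhlhe40 was called at 162 µg (0.77, SE 0.18, adjusted p = 0.0484, limma), against 0.216% of all probes, and Dbp also without replicate 3, against 0.267%. On day 28 none of the 22 was called after NRCWE-025 at 18, 54 or 162 µg, against 0.034%, 0.017% and 0.00729%, with 2, 0 and 1 at an unadjusted p under 0.05 by limma. The arrays that chose the members gave, at 162 µg of NRCWE-030 on day 28, 2.27 (SE 0.38) for Dbp, 1.22 (SE 0.25) for Hlf and 0.94 (SE 0.21) for Tef, as a description.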

How the data were processed

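Two-colour arrays of 69 lungs fell into 14 groups, set by the material, dose and day in the labels. The deposited scanner files, written by Agilent Feature Extraction 11.0.1.1, hold median spot and local background signals as linear intensity, a log10 ratio of Cy5 over Cy3 and flags. The deposited series matrix holds the authors' log2 ratios after LOWESS, and it was used as an alternative. Values were recomputed with limma 3.58.1 in R 4.3.3. Where the scanner flagged a local background as an outlier (1.26% to 2.04% of Cy5 backgrounds on an array), the median of the array's unflagged backgrounds took its place, followed by normexp with an offset of 50 and loess within each array. Spots marked as outliers were left out, and spots of a probe were combined by the median. Of 41174 probes, 27479 matched a RefSeq symbol. For a gene with several probes, the probe with the highest median Cy5 signal was used, and other probes are given where they bear on a call.

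One limma model held all 14 groups, with two-sided tests and adjustment over all probes. On simulated data, 187 of 200 features changed by 1 (log2) were recovered at 162 µg of NRCWE-030 on day 1 against vehicle, with 2 false calls. Within-group correlations used 100000 permutations within groups, also where slide means had been removed. Replicates were separate mice, and no 2 arrays held the same values. The precision is limited by the 4 or 5 arrays of a group. The genes, the gene lists and the tests were chosen with earlier results of these data known, and leaving out vehicle day 1 replicate 3 in the correlations and in single fits was added after seeing the data. Slide and scan day, per the file headers, were tried as blocks: there were 19 slides and 11 scan days. Named genes were the 10 members, the called genes of the list of other clock genes, and the 5 highest and 5 lowest genes by likeness to Arntl.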

Additional observations from a re-analysis of the deposited data

Results flagged for a closer look

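In 140 tests, 1 for each of the 10 genes in each of the 14 groups, 14 values lay farther from the rest of their group than Dixon's 95% limit. Chance gives about 1 in 20 for independent tests, but the 10 genes were measured on the same arrays, so these tests are not independent. Of the 14, 3 were vehicle day 1 replicate 3: Arntl at -1.70, Nr1d1 at 2.20 and Nr1d2 at 2.01. In NRCWE-025 at 162 µg on day 28, Arntl in replicate 1 was at -0.20, where the other 3 mice were at 0.59 to 0.62, and Nr1d2 in replicate 4 was at 0.51. In NRCWE-030 at 54 µg on day 1, Nr1d1 in replicate 5 was at 0.64, against 1.41 to 1.53 in the others. Nr1d2 was at 0.41 in replicate 5 of NRCWE-025 18 µg day 1 and at 1.44 in replicate 5 of NRCWE-030 162 µg day 28. Per1 was at -0.44 in replicate 5 of NRCWE-030 54 µg day 28, and Per3 at -0.79 in replicate 2 of NRCWE-030 18 µg day 28. Near the background, Cry1 was at -0.78 in replicate 2 of NRCWE-025 162 µg day 1, at -0.28 in replicate 5 of NRCWE-025 18 µg day 28 and at -0.64 in replicate 3 of vehicle day 28, and Npas2 was at 0.57 in replicate 4 of NRCWE-025 18 µg day 28. No cause was tested for any of these arrays.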

How the results depend on the processing

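The Arntl difference at 162 µg of NRCWE-030 on day 1 was called in all 11 alternatives, from -2.08 (scanner log ratio) to -1.36 (Cy5 channel alone). No value of a called gene changed sign. The dose effect of NRCWE-030 on day 1 called 0 members with 1 fit per material and day and 7 with slide as a fixed block, against 4. Over all probes the count was 583, against 219 with 1 fit per material and day. It was 1653 and 2388 with slide as a random and a fixed block, and 1448 with scan day. Between 162 and 18 µg of NRCWE-030 on day 1, slide as a random or fixed block gave 2 members, against 0. The Per2 difference between the materials at 162 µg was 0.49 on day 1 and 0.94 on day 28 with the median over probes. The r of Arntl with Nr1d2 was -0.34 and with Per2 -0.24 without the 2 farthest arrays, that with Per2 was -0.44 (adjusted p = 0.0587, permutation test) in the Cy5 channel alone, and with slide means removed and vehicle replicate 3 left out r was -0.22 with Nr1d1 and -0.29 with Nr1d2. Relations with no call as given moved as follows. Slide means removed gave -0.58 with Per1, -0.52 with Per3 and 0.095 with Npas2, and with vehicle replicate 3 also left out 0.087 with Cry2 and 0.19 with Npas2. The 2 farthest arrays left out gave -0.0059 with Clock, 0.12 with Cry2 and 0.19 with Per1. The Cy5 channel alone gave -0.025 with Clock and 0.13 with Npas2, and the scanner log ratio 0.43 with Cry1 and 0.14 with Npas2. Leaving out 1 array at a time gave 0 to 2 members for the dose effect of NRCWE-025 on day 1, 2 to 6 for NRCWE-030 on day 1 and 0 to 1 for 162 against 18 µg of NRCWE-030 on day 1, and r of Arntl without replicate 3 was -0.25 with Per2, 0.0015 with Cry2 and 0.064 with Per1. With 1 fit per material and day, Per2 (adjusted p of 0.137 at 54 µg and 0.053 at 162 µg), Nr1d2 (0.186 and 0.108), Clock (0.0698 at 162 µg) and Arntl at 54 µg (0.186) lost their calls, by limma. Nr1d2 at 54 µg also lost it without vehicle day 1 replicate 2, 4 or 5 (adjusted p of 0.0848, 0.0536 and 0.066, limma), and at 162 µg without replicate 2 (0.0511). What made the difference in any of these cases was not tested. Scaling of the channels between arrays (Aquantile) was not run, since it leaves the log ratios as they are. Mice could not be paired by replicate number, because the labels give none shared between groups, and replicates were numbered in sample order. Slides and scan days shared between groups served as blocks instead, and arrays of 1 slide were compared with each other.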
